A study of Mus musculus with 16 samples.

Results

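Liver RNA from mice whose feeding regimen contained chow was compared with liver RNA from mice whose regimen contained none. The class with chow joined 2 regimens of 4 libraries each: HC, in which a high-fat diet (58% of energy from fat) and chow (11%) took turns every 2 weeks, and N, in which chow was fed throughout. The class without chow also joined 2 regimens of 4 libraries: HK, in which the high-fat diet took turns every 2 weeks with a ketogenic one that drew 90.5% of its energy from fat, and H, in which the high-fat diet was fed throughout. All animals were male C57BL/6 mice bought at an age of 7 weeks, were fed their regimen for 16 weeks in groups of 6, and gave liver after a night without food. The comparison ran over 11450 of the 22612 genes in the deposited table, namely those with at least 1 TPM (a length-corrected share of transcripts that sums to the same total in every library) in 4 or more of the 16 libraries. Each class holds 1 regimen of alternating and 1 of continuous feeding, so alternation is balanced between the classes. Chow and a low share of fat came together in this design and cannot be told apart, and which diet the HC and HK mice ate last is not given in the sources used here. Whether the libraries are from separate mice is not stated, so p-values measure the spread between these libraries, which may be technical.

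The liver clears foreign compounds with cytochrome P450 enzymes that oxidise them, carboxylesterases that split esters, and transferases that attach glutathione, sulfate or sugar acids. It also makes cholesterol through a chain of enzymes that the transcription factor SREBP2 switches on when sterol is scarce, and it takes up, stores, oxidises and exports fat. P450 genes of the Cyp2b, Cyp2c and Cyp3a subfamilies are classical targets of the receptors CAR and PXR, which sense foreign compounds and bile acids.

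Because TPM values hold no read numbers, sequencing depth is unknown. Between 10575 and 11695 genes reached 1 TPM per library, and libraries of 1 regimen correlated over genes with r between 0.961 and 0.990. All 10 hepatocyte markers were present in all 16 libraries, with a summed level of 93728 to 120679 TPM with chow and 89265 to 132048 TPM without chow. The pancreatic genes Prss1, Try4, Try5, Cela3b and Pnlip were at 0 in all 16 libraries. Libraries N2, N3, H1 and H2 held over 33% of their TPM in 20 genes. This share averaged 32.0% with chow and 30.2% without chow, a difference within the spread of the libraries (exact permutation test over 8 and 8 libraries, two-sided, p = 0.221, adjusted over 15 composition measures 0.369). Mitochondrial genes held 11.7% of TPM with chow and 9.63% without chow (same exact test, p = 0.0608, adjusted 0.182), with N3 at 18.4% and N2 at 13.6% above all other libraries. The part of this share in the results below was not tested.

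Promoter windows of 250 bases before to 50 after the RefSeq transcription start (GRCm38.p6) are shown for 4 called genes that hold a motif match. The called genes Them7, Cgref1, Fgf21 and Krt23 also hold a match and are not shown. Of the 4 genes shown, Cyp2b10 passed with each regimen left out in turn, and Hmgcs1, Mvk and Mmab did not pass without N or without HK. Each is read 5′ to 3′ in lower case, with the motif match in capitals. Cyp2b10 had the smallest adjusted p of all genes, and its window, chr7:25897408-25897707 on the plus strand, holds the sterol regulatory element letters TCACNCCAC on the opposite strand. Hmgcs1, which opens the cholesterol pathway, holds the same letters on its own strand in chr13:119690101-119690400, plus strand. Mvk and Mmab lie head to head, with starts 241 bases apart, and both were lower with chow. The stretch they share, chr5:114444019-114444277 on the plus strand, holds 1 match to the antioxidant response element core TGACNNNGC.
Cyp2b10: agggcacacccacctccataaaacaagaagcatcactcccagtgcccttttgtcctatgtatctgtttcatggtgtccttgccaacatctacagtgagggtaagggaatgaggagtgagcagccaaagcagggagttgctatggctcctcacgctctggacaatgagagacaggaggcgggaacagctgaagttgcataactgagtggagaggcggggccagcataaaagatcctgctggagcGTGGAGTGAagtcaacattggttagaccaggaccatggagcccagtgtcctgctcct
Hmgcs1: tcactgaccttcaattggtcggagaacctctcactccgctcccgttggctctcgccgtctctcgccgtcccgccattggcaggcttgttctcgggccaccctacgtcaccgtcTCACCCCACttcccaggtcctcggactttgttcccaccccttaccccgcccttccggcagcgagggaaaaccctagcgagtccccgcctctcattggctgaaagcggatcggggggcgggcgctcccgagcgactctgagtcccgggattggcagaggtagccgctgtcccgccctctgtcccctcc
Mvk and Mmab: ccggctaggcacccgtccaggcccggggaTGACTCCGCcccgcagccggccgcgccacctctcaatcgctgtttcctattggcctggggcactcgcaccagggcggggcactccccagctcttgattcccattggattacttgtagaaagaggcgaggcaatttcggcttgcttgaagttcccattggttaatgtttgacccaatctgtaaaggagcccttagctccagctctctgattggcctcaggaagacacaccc
On either strand, TCACNCCAC occurred in 1 of the 20 promoters of called genes that were higher with chow (5%, Cyp2b10), in 1 of the 38 that were lower (2.63%, Hmgcs1), in 1.24% of all 32851 RefSeq promoters and in 1.21% of the 11449 promoters of genes tested. The core TGACNNNGC occurred in 0 of these 20 and in 3 of these 38 promoters (7.89%, for Mmab, Mvk and Them7), against 12.4% of all promoters and 14.3% of those of genes tested. The E-box CACGTG occurred in 0 of the 20 and 4 of the 38 (10.5%), against 7.15% of all and 9.97% of those of genes tested. RefSeq windows were matched for 18 of the 19 higher and 31 of the 39 lower genes. A match of letters is a description of the window, not a binding site.

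Of enzymes that clear foreign compounds, 6 of 35 P450 genes and 6 of 21 glutathione transferases tested were higher with chow, and most members of both lists did not pass. Cholesterol synthesis genes were lower in 7 of 25 and interferon-stimulated genes in 8 of 26, and no tested member of these 4 lists passed in the opposite direction. Of 11450 genes tested with limma on log2(TPM + 1), 58 (0.507% of those tested) were called at a Benjamini-Hochberg adjusted p below 0.05 and at least 2-fold. Of these, 19 (0.166%) were higher and 39 (0.341%) lower with chow. With no fold limit 161 genes (1.41%) passed, 51 of them higher (0.445%) and 110 lower (0.961%), and members of gene lists are counted by this rule. In 38 genes (0.332%) the 8 libraries with chow did not overlap the 8 without chow, 17 higher (0.148%) and 21 lower (0.183%). The median log2 difference over all genes was -0.07, and 36.4% of genes lay above 0. Dividing the libraries by median-of-ratios factors moved that median by 0.06 and gave 60 called genes, 54 of them among the 58. Without N2, N3, H1 and H2, 63 genes were called, 15 higher and 48 lower, 41 of them shared with the 58.

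**Figure D1:**
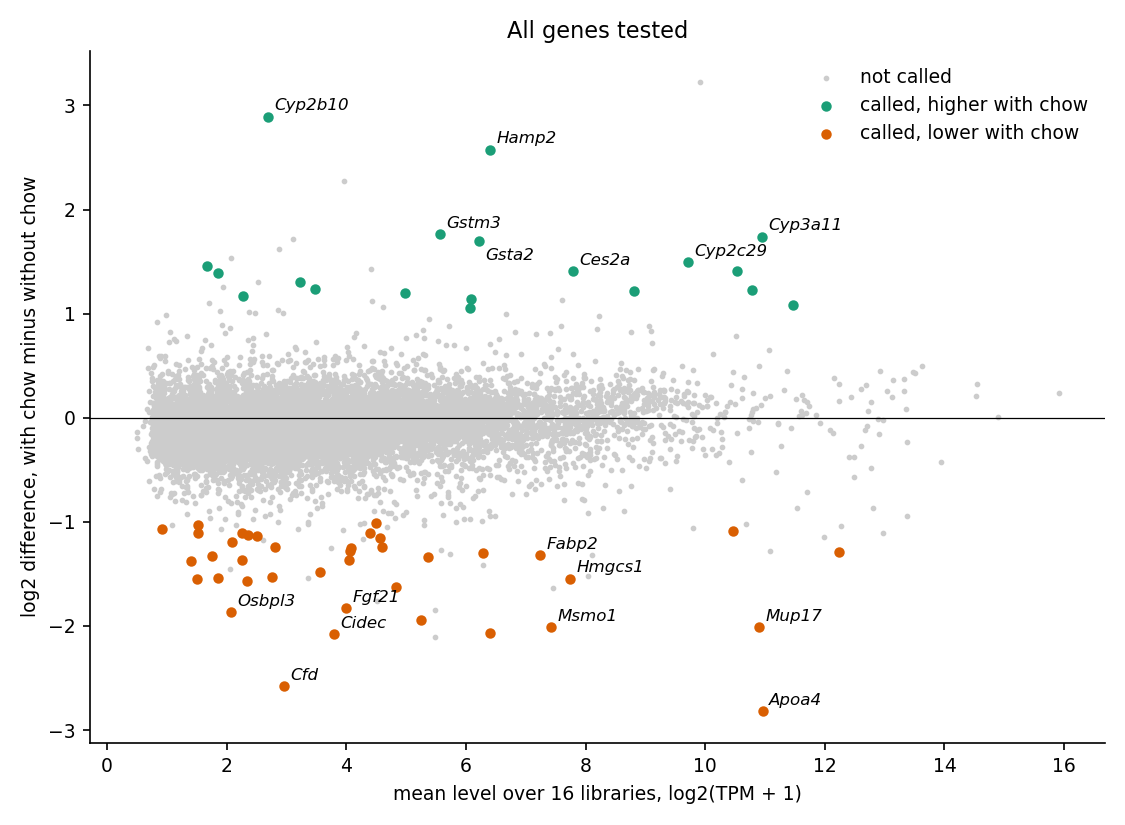
Each point is 1 of the 11450 genes tested, with its mean level over 16 libraries as log2(TPM + 1) on the x axis and its log2 difference, with chow minus without chow, on the y axis. The 19 called genes higher with chow are green and the 39 lower are orange, with Cyp2b10 at 2.89 and Apoa4 at -2.82 as the called genes farthest from 0 on each side.

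The 58 calls did not rest equally on the 4 regimens. All 58 had the same direction in each of the 4 pairs that set a regimen with chow against one without, and 12 of them, 6 higher and 6 lower, reached 1 on the log2 scale in every pair. Left out in turn, the regimens kept different numbers of the 58 at an adjusted p below 0.05, namely 47 without HC, 10 without N, 10 without HK and 50 without H. All 58 kept their direction each time, which follows from the shared direction of the 4 pairs and is no separate support. With regimens as the units, 2 against 2, the smallest two-sided p of an exact permutation test is 0.333, so the tests below speak of libraries and not of regimens in general. Over all genes, 9 passed with each regimen left out: Cyp2b10, Cyp2c29, Cyp3a25 and Ces2a, higher with chow, and Apoa4, Fabp2, Aqp4, Stap1 and Slc35f2, lower. These 9 also passed in each of the 16 fits that left out 1 library.

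Cyp2b10 (ENSMUSG00000030483, chr7:25897620-25926624 on mm10), a P450 enzyme used as the standard readout of CAR, was nearly silent in livers without chow. It had 6.18, 12.3, 8.33 and 7.71 TPM in the HC libraries and 21.98, 8.86, 10.1 and 8.39 TPM in the N libraries. It had 0.0396, 0.224, 0.635 and 0.308 TPM in the HK libraries and 0.454, 1.39, 0.480 and 0.411 TPM in the H libraries. The lowest library with chow stood above the highest without, H2, and the 3 other H libraries and the HK libraries were all below 1 TPM. The means were 10.5 ± 4.98 TPM with chow and 0.493 ± 0.405 TPM without chow (SD, n = 8 each; log2 difference 2.89, SE 0.202, adjusted p = 1.06e-07; 95% interval 2.47 to 3.32). Because the pseudocount of 1 exceeds most of the low values, this difference understates the ratio of the TPM values. It did not pass between the regimens of a class, with log2 -0.40 for HC minus N (95% interval -0.98 to 0.17) and -0.35 for HK minus H (95% interval -0.93 to 0.22). It passed with each regimen left out (adjusted p = 1.63e-05 without HC, 1.13e-05 without N, 0.000152 without HK and 8.02e-06 without H).

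Cyp2c29 (ENSMUSG00000003053, chr19:39269405-39330648), an abundant P450 enzyme of fatty acid and drug oxidation, had 1355, 1090.1, 1568 and 1789.8 TPM in the HC libraries and 1393, 823, 836 and 1015 TPM in the N libraries. It had 240.2, 416, 559 and 345 TPM in the HK libraries and 401, 525, 548 and 442 TPM in the H libraries. The classes did not overlap, and the HC mean stood above the N mean (log2 difference 1.497, SE 0.186, adjusted p = 0.000198). Ces2a (ENSMUSG00000055730, chr8:104734003-104741630), a carboxylesterase that hydrolyses esters of drugs and acylglycerols, had 225, 237, 226 and 276 TPM in the HC libraries and 406, 473, 382 and 365 TPM in the N libraries. It had 76.4, 127, 115 and 113 TPM in the HK libraries and 118, 100.3, 167 and 141 TPM in the H libraries. Every library with chow was above every library without (log2 difference 1.41, SE 0.174, adjusted p = 0.000198), and N livers were above HC livers in all libraries (HC minus N log2 -0.75, adjusted p = 0.0433). Cyp3a25 (ENSMUSG00000029630, chr5:145977194-146009618), a hepatic enzyme of the Cyp3a cluster, had 537, 668, 652 and 569.9 TPM in the HC libraries and 824, 786, 829 and 766 TPM in the N libraries. It had 321, 380.2, 369.6 and 454 TPM in the HK libraries and 388, 449, 397 and 371 TPM in the H libraries. The classes did not overlap, but the difference stayed under 2-fold (log2 difference 0.84, SE 0.108, adjusted p = 0.000303).

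**Figure D2:**
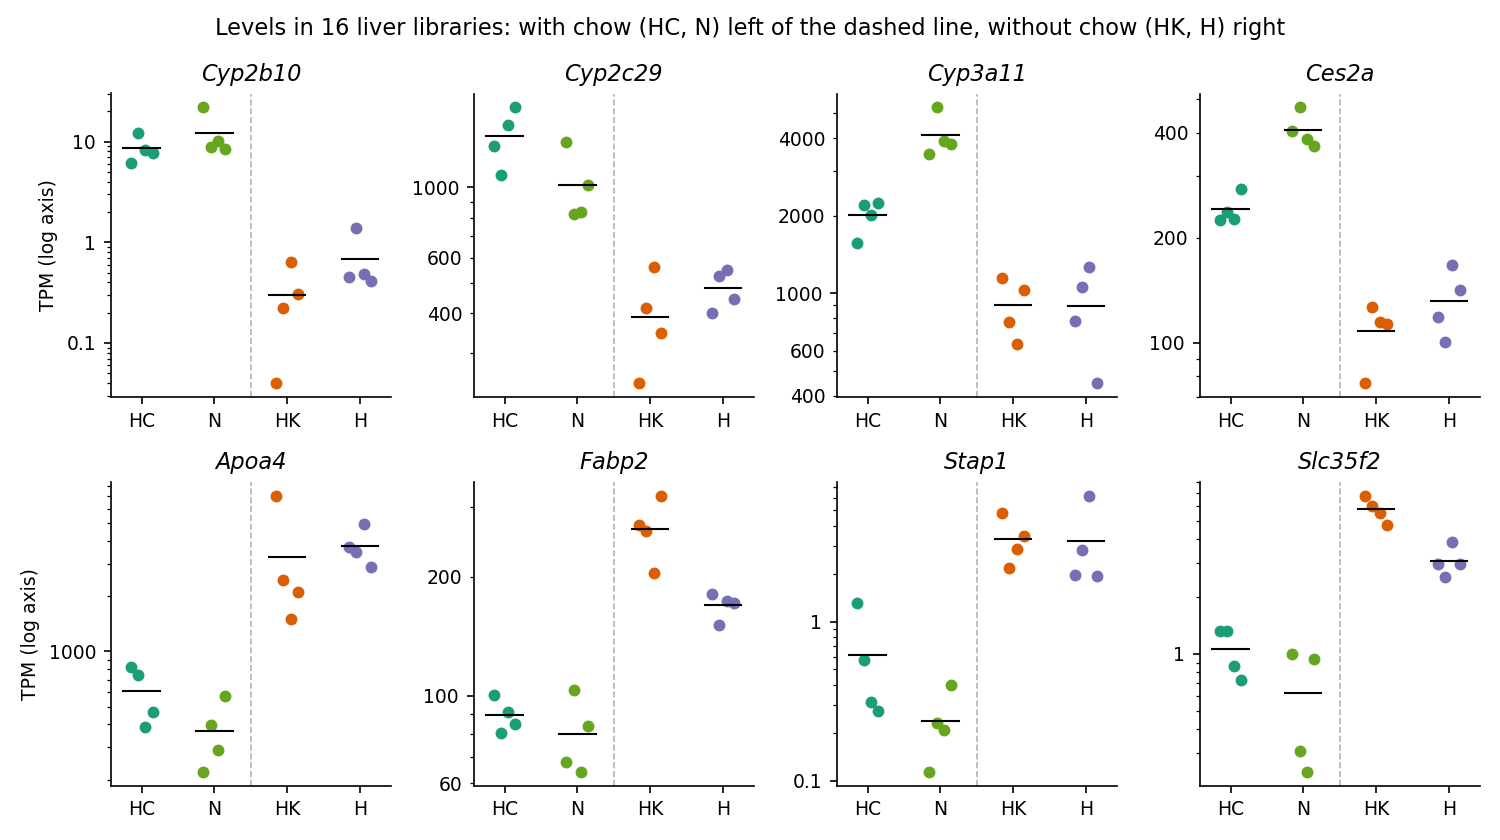
TPM on log axes for 8 genes in each of 16 libraries, with HC and N left of the dashed line and HK and H right of it; bars are regimen means. In Cyp2b10, Cyp2c29, Cyp3a11 and Ces2a all 8 libraries with chow lie above all 8 without, and in Apoa4, Fabp2, Stap1 and Slc35f2 they lie below.

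Apoa4 (ENSMUSG00000032080, chr9:46240696-46243459), an apolipoprotein of triglyceride-rich lipoproteins that the fatty liver also makes, was the called gene with the most negative difference. It had 822, 748, 388 and 467 TPM in the HC libraries and 221, 398, 289.6 and 568 TPM in the N libraries. It had 7053, 2448, 1505 and 2114 TPM in the HK libraries and 3691, 3490.0, 4964 and 2887 TPM in the H libraries. The highest value with chow, in HC1, was below the lowest without, in HK3, and HK1 stood above all others (log2 difference -2.82, SE 0.295, adjusted p = 5.09e-05, 95% interval -3.44 to -2.20). Fabp2 (ENSMUSG00000023057, chr3:122895072-122899506), a fatty acid binding protein best known from intestine, had 101, 80.3, 91.1 and 84.9 TPM in the HC libraries and 67.98, 103, 64.2 and 84.04 TPM in the N libraries. It had 269.9, 261, 205 and 320.1 TPM in the HK libraries and 181, 151, 174 and 171 TPM in the H libraries. The classes did not overlap, and the HK mean was above the H mean (log2 difference -1.32, SE 0.150, adjusted p = 0.000129). Among 7 intestinal markers Sis and Fabp6 were at 0 in all 16 libraries and Cdx2 and Alpi at 0 in 15. The summed level of the 7 was 65.7 to 104.7 TPM with chow and 153.7 to 322 TPM without chow, nearly all of it Fabp2. In bulk liver, fewer cells of a type and less RNA per cell cannot be told apart.

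Stap1 (ENSMUSG00000029254, chr5:86071746-86106125), an adaptor protein of tyrosine kinase signalling, had 1.32, 0.577, 0.311 and 0.274 TPM in the HC libraries and 0.113, 0.230, 0.207 and 0.400 TPM in the N libraries. It had 4.78, 2.17, 2.84 and 3.45 TPM in the HK libraries and 1.96, 2.81, 6.17 and 1.93 TPM in the H libraries. The class values were separate but low, and the pseudocount shrinks the difference (log2 difference -1.54, SE 0.190, adjusted p = 0.000198). Slc35f2 (ENSMUSG00000042195, chr9:53771538-53818154), a membrane solute carrier, had 1.31, 1.32, 0.865 and 0.728 TPM in the HC libraries and 0.995, 0.310, 0.239 and 0.9399 TPM in the N libraries. It had 6.78, 5.98, 5.47 and 4.76 TPM in the HK libraries and 2.97, 2.55, 3.86 and 2.98 TPM in the H libraries. Every library without chow was above every library with it, with HK above H in all libraries (log2 difference -1.54, SE 0.181, adjusted p = 0.000165). Aqp4 (ENSMUSG00000024411, chr18:15389394-15403684), a water channel, had 1.32, 1.52, 1.93 and 3.52 TPM in the HC libraries and 0.951, 1.15, 0.806 and 1.23 TPM in the N libraries. It had 6.803, 6.75, 9.11 and 7.42 TPM in the HK libraries and 3.19, 4.19, 8.09 and 6.703 TPM in the H libraries. Only HC4, at 3.52 TPM, overlapped the libraries without chow, above H1 at 3.19 TPM (log2 difference -1.57, SE 0.195, adjusted p = 0.000198).

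Among P450 enzymes of foreign compounds, 6 of 35 genes tested were higher with chow and 0 lower, where 0.445% of all genes were higher. The median over the list was 0.15 on the log2 scale, against -0.07 over all genes. Of the 35, 20 were above 0, against 36.4% of all genes. The classes did not overlap in 4 of the 35, against 0.332% of all genes. Within the class with chow, 4 of the 35 were higher in HC than in N and 0 lower, and of the 21 glutathione transferases 0 were higher and 4 lower, where 0.908% of all genes passed in either direction. The 6 that were higher with chow were Cyp2b10, Cyp2c29, Cyp3a25, Cyp3a11, Cyp3a59 and Cyp2c55, which belong to 3 subfamilies. Cyp3a11, the main drug-oxidising Cyp3a enzyme of mouse liver, had 1569.8, 2205, 2025 and 2249.9 TPM in the HC libraries and 3474, 5283, 3906 and 3798 TPM in the N libraries. It had 1145, 778, 638 and 1034 TPM in the HK libraries and 780.4, 1063, 1269.7 and 448 TPM in the H libraries. All N libraries stood above all HC libraries, which stood above all without chow (log2 difference 1.74, SE 0.243, adjusted p = 0.000799). HC minus N was -1.03 with an adjusted p of 0.0834, and the class difference did not pass without N (adjusted p = 0.0686). Cyp3a59 lay between 29.9 and 59.4 TPM (median 41.9) with chow and between 13.4 and 33.9 TPM (median 16.5) without chow (log2 difference 1.19, SE 0.161, adjusted p = 0.000531). Cyp2c55 was low in every regimen, between 1.99 and 5.75 TPM (median 3.46) with chow and between 0.0466 and 4.04 TPM (median 0.365) without chow (log2 difference 1.46, SE 0.259, adjusted p = 0.0105), and HK1 was the library without chow that overlapped. Cyp3a59 did not pass without HK (limma adjusted p = 0.0770), and Cyp2c55 did not pass without N (0.260). Abundant members that did not pass included Cyp2e1 (-0.48, adjusted p = 0.170) and Cyp1a2 (0.52, adjusted p = 0.172). None of 23 nuclear receptors passed, and Nr1i3, which encodes CAR, had 217 ± 37.8 TPM in HC, 165 ± 43.1 TPM in N, 218 ± 84.8 TPM in HK and 214 ± 55.4 TPM in H (SD, n = 4 each; -0.16, adjusted p = 0.698). Reads of near-identical Cyp2b, Cyp2c and Cyp3a genes were divided by estimation, so the split within these clusters is uncertain.

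Glutathione transferases, which join glutathione to reactive compounds, were higher with chow in 6 of 21 genes tested and lower in 0, with a median of 0.46 and 14 of 21 above 0. Over all genes 0.445% were higher, the median was -0.07 and 36.4% lay above 0. The 6 were Gstp1, Gstp2, Gstm1, Gstm3, Gsta2 and Gstm6, and their levels were graded, N above HC above both regimens without chow in all but Gstm6. Gstm1 had 1577, 1520.3, 1325 and 1412 TPM in the HC libraries and 2330.5, 5301, 4151 and 2620.3 TPM in the N libraries. It had 1047, 1061, 807 and 1038 TPM in the HK libraries and 1203, 862, 1167 and 604 TPM in the H libraries. The classes did not overlap (log2 difference 1.22, SE 0.256, adjusted p = 0.0229), and HC livers were below N livers (HC minus N -1.23, adjusted p = 0.0215). Gsta2 had 30.9, 47.8, 49.1 and 61.1 TPM in the HC libraries and 133, 296, 205 and 117 TPM in the N libraries. It had 37.4, 40.3, 22.2 and 32.4 TPM in the HK libraries and 21.5, 16.6, 52.1 and 14.2 TPM in the H libraries. The N libraries stood above all others, whereas HC overlapped HK and H (log2 difference 1.69, SE 0.395, adjusted p = 0.0369). Its difference between N and H (2.89) exceeded that between HC and HK (0.50; interaction adjusted p = 0.0335). Gstm3 lay between 30.3 and 251 TPM (median 44.5) with chow and between 8.41 and 46.1 TPM (median 14.6) without chow, with N2 at 251 TPM above all others (log2 difference 1.76, SE 0.369, adjusted p = 0.0229). Gstp1 lay between 1643 and 5691 TPM (median 3768) with chow and between 1110.3 and 2879 TPM (median 1657) without chow (1.08, adjusted p = 0.0302) and its neighbour Gstp2 between 275 and 979.6 TPM (median 569.8) with chow and between 165 and 545 TPM (median 249) without chow (1.21, adjusted p = 0.0210). Gstm1 and Gstp2 did not pass without N4 or without HK3, and Gstm3 did not pass without N3 or without HK3. Gstp1 passed in 9 of the 16 fits that left out 1 library, Gsta2 in 6 of the 16 and Gstm6 in 4 of the 16. None of the 6 passed without N or without HK. Gsta2, Gstm1 and Gstm3 did not pass without H either (limma adjusted p = 0.0924, 0.0518 and 0.0558).

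Of 23 NRF2 and antioxidant targets 1 was higher and 0 lower, with a median of -0.04. Beside the counts in this paragraph, 0.445% of all genes were higher and 0.961% lower. The 1 was Cbr1, a carbonyl reductase (144 ± 46.4 TPM with chow and 79.5 ± 18.4 TPM without chow, SD, n = 8 each; 0.83, adjusted p = 0.0278). Among 12 carboxylesterases 2 were higher, Ces2a and Ces1c, and 0 lower. Ces1c, a secreted plasma esterase, lay between 2023 and 2444 TPM (median 2208) with chow and between 1319 and 1949 TPM (median 1577) without chow, without overlap (log2 difference 0.50, SE 0.0907, adjusted p = 0.0116). Of 22 glucuronosyltransferases and sulfotransferases 1 was higher, Sult1d1 (0.60, adjusted p = 0.00641), and 1 lower, Sult2a8, which sulfates bile acids in mice (-0.69, adjusted p = 0.0369). Among 24 aldehyde and aldo-keto enzymes 1 was higher, Akr1b7, at 1.69 TPM with chow and 0.474 TPM without chow (0.83, adjusted p = 0.0351). Of the 16 fits that left out 1 library, Cbr1 passed in 11, Akr1b7 in 8 and Sult2a8 in 6, whereas Ces1c and Sult1d1 passed in all 16. Neither Ces1c nor Sult1d1 was among the genes that passed with each regimen left out.

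**Figure D3:**
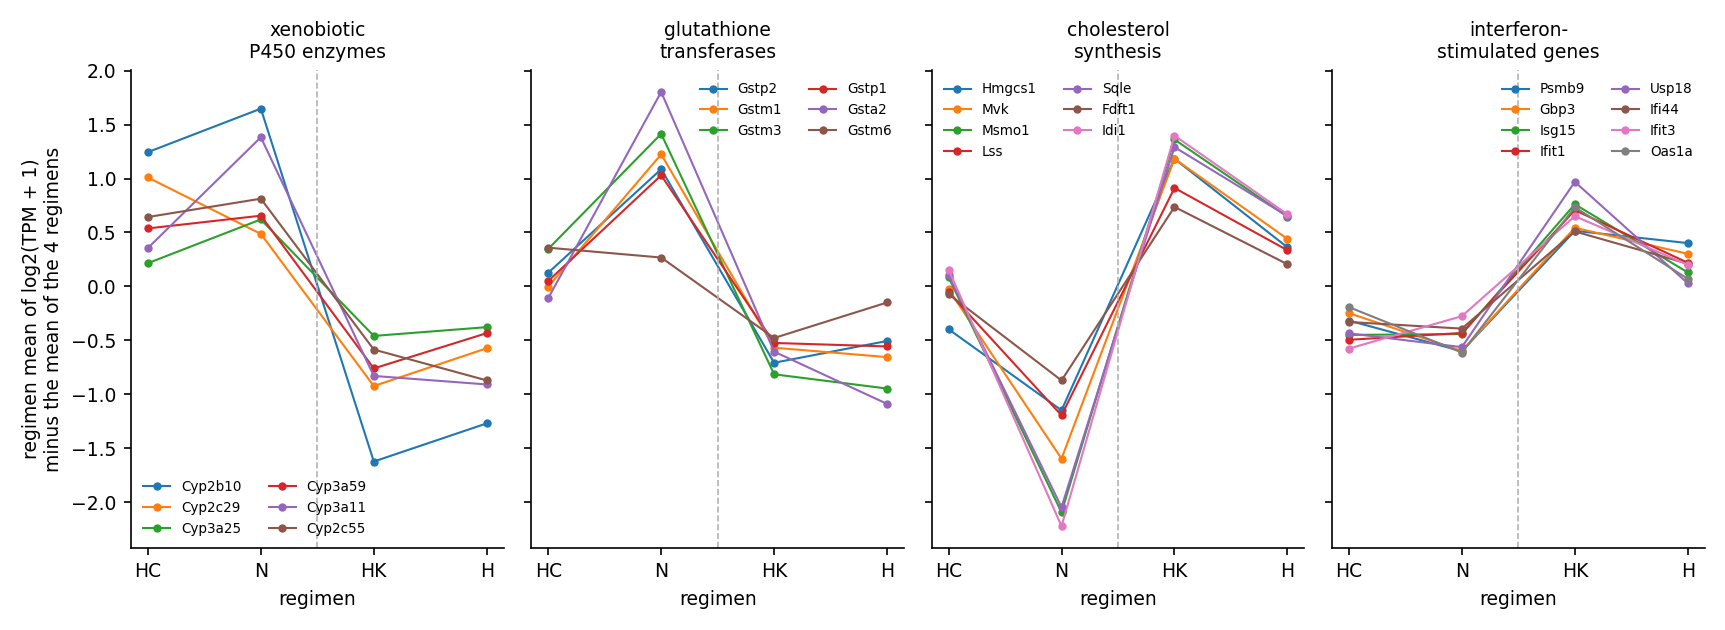
Regimen means of log2(TPM + 1), each gene centred on its mean over the 4 regimens, for members of 4 gene lists at an adjusted p below 0.05. The P450 lines stand high in both HC and N, the glutathione transferase lines other than Gstm6 are highest in N, the cholesterol lines are lowest in N and highest in HK, and the interferon-stimulated lines are lower in HC and N than in HK and H.

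Both hepcidin genes, which encode the hormone that limits iron entry into blood, were higher with chow. Hamp had 2487, 2299, 1739 and 1095 TPM in the HC libraries and 2157, 1320.3, 3058 and 2663 TPM in the N libraries. It had 1380.4, 304, 1320.0 and 818 TPM in the HK libraries and 369, 568, 989 and 1074 TPM in the H libraries. The classes overlapped through HC4 and N2 on one side and HK1 and HK3 on the other (log2 difference 1.41, SE 0.300, adjusted p = 0.0251). Hamp2 had 116, 67.1, 42.3 and 48.8 TPM in the HC libraries and 87.7, 351, 333 and 65.97 TPM in the N libraries. It had 7.39, 2.54, 5.03 and 7.91 TPM in the HK libraries and 27.1, 71.9, 80.6 and 27.3 TPM in the H libraries. It was lowest in HK, where it was also below H (HK minus H -2.88, adjusted p = 0.0484), and H overlapped HC and N (log2 difference 2.58, SE 0.619, adjusted p = 0.0413). The 2 genes are closely related neighbours, so reads may be divided between them with error. Hamp did not pass without HC2, without N3, without N4 or without the libraries with over 33% of TPM in 20 genes, and Hamp2 passed in 6 of the 16 fits without 1 library. Neither hepcidin gene passed without N or without HK, and Hamp did not pass without H (limma adjusted p = 0.0530). The other 17 of 19 tested genes of zinc and iron handling did not pass. Over all genes 0.445% were higher.

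Other called genes higher with chow included enzymes of amino acid and phospholipid breakdown. Hdc, which makes histamine from histidine, had 6.98 ± 2.14 TPM in HC, 18.1 ± 6.201 TPM in N, 3.86 ± 1.53 TPM in HK and 4.503 ± 2.92 TPM in H (SD, n = 4 each; 1.30, adjusted p = 0.0397). Acmsd, which steers tryptophan breakdown away from NAD synthesis, had 10.6 ± 2.78 TPM in HC, 17.9 ± 5.68 TPM in N, 6.85 ± 6.02 TPM in HK and 5.19 ± 2.72 TPM in H (1.24, adjusted p = 0.0369). Etnppl, which degrades phosphoethanolamine, had 66.05 ± 12.8 TPM in HC, 119 ± 26.5 TPM in N, 40.9 ± 12.1 TPM in HK and 41.6 ± 21.02 TPM in H (1.14, adjusted p = 0.0174). Clic3, an intracellular chloride channel protein, had 2.99 ± 1.65 TPM in HC, 5.59 ± 3.09 TPM in N, 0.6996 ± 0.311 TPM in HK and 1.13 ± 0.788 TPM in H (1.39, adjusted p = 0.0158). Angptl8, a feeding-regulated inhibitor of lipoprotein lipase, had 95.6 ± 56.6 TPM in HC, 80.3 ± 9.34 TPM in N, 34.7 ± 17.1 TPM in HK and 52.6 ± 26.2 TPM in H (1.06, adjusted p = 0.0470). The N mean was the highest of the 4 in Hdc, Acmsd, Etnppl and Clic3, but not in Angptl8, where HC1 had 179.6 TPM. Asl, the urea cycle enzyme that releases arginine, was the 1 of 29 genes of urea and amino acid breakdown that was higher (0.71, adjusted p = 0.0341). Over all genes 0.445% were higher. Hdc passed in 7 of the 16 fits without 1 library, Acmsd in 6 of the 16, Angptl8 in 4 of the 16 and Asl in 9 of the 16, whereas Etnppl and Clic3 passed in all 16. None of Hdc, Acmsd, Angptl8, Etnppl and Clic3 passed without N or without HK. Angptl8 also did not pass without HC (limma adjusted p = 0.0813), nor did Hdc and Acmsd without H (0.05001 and 0.0763).

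Cholesterol synthesis genes were lower with chow in 7 of 25 tested and higher in 0, where 0.961% of all genes were lower. The list median was -0.94, against -0.07 over all genes, and 2 of 25 were above 0, against 36.4% of all genes. In none of the 25 were the classes separate. Hmgcs1, which makes HMG-CoA for the pathway, had 220.0, 80.8, 84.2 and 167 TPM in the HC libraries and 92.4, 93.97, 52.6 and 66.8 TPM in the N libraries. It had 215, 568, 553 and 303 TPM in the HK libraries and 179.9, 369, 152 and 207 TPM in the H libraries. HK2 and HK3 were highest, N was low throughout, and HC1 and HC4 lay within the range of H (log2 difference -1.55, SE 0.303, adjusted p = 0.0173). Msmo1, a sterol C4-demethylase, had 196, 87.2, 80.5 and 184 TPM in the HC libraries and 39.2, 49.01, 17.97 and 15.3 TPM in the N libraries. It had 202, 417, 395 and 268 TPM in the HK libraries and 136, 309, 138 and 208 TPM in the H libraries. Each N library was below each HC library, and 2 HC libraries reached into the range without chow (log2 difference -2.01, SE 0.451, adjusted p = 0.0331; HC minus N 2.18, adjusted p = 0.0126). Mvk, mevalonate kinase, had 31.5, 16.3, 14.6 and 24.7 TPM in the HC libraries and 7.99, 12.1, 3.67 and 4.27 TPM in the N libraries. It had 35.3, 61.7, 64.9 and 42.1 TPM in the HK libraries and 20.6, 27.7, 33.6 and 37.3 TPM in the H libraries. The order of regimen means was N, HC, H and HK, low to high (log2 difference -1.62, SE 0.350, adjusted p = 0.0260). Mmab, which makes the cobalamin cofactor and shares the promoter stretch shown above, had 16.96 ± 5.23 TPM in HC, 8.78 ± 2.72 TPM in N, 32.3 ± 8.13 TPM in HK and 22.7 ± 3.06 TPM in H (SD, n = 4 each; -1.11, adjusted p = 0.0196), the same order.

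Sqle, Idi1, Lss and Fdft1 followed the same order of regimen means. Sqle, which epoxidises squalene, lay between 2.89 and 49.9 TPM (median 13.7) with chow and between 29.6 and 95.9 TPM (median 57.1) without chow (-1.94, adjusted p = 0.0369). Idi1, isopentenyl diphosphate isomerase, lay between 4.98 and 112 TPM (median 29.8) with chow and between 46.99 and 224 TPM (median 125) without chow (-2.07, adjusted p = 0.0499). Within the class with chow, 9 of the 25 genes were higher in HC than in N and 0 lower (where 0.908% of all genes passed in either direction), with a median of 1.28, against -0.04 over all genes. Between HK and H 0 passed (0.0786% of all genes did), with a median of 0.45, against 0.20 over all genes. List medians of the 4 pairs were -0.62 for HC minus HK, -0.26 for HC minus H, -1.89 for N minus HK and -1.51 for N minus H. None of the 7 passed without N or without HK. Of the 7, Hmgcs1 alone passed in all 16 fits without 1 library, whereas Mvk passed in 12, Msmo1 in 8, Sqle, Lss and Fdft1 in 5 each and Idi1 in 3.

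Of 23 genes of lipid droplets and triglycerides 4 were lower and 0 higher (median -0.22), where 0.961% of all genes were lower (median -0.07). Cidec, which fuses lipid droplets, had 1.800, 1.91, 2.31 and 3.26 TPM in the HC libraries and 4.99, 4.03, 0.857 and 5.45 TPM in the N libraries. It had 70.9, 35.9, 21.3 and 26.2 TPM in the HK libraries and 3.64, 4.42, 12.9 and 6.35 TPM in the H libraries. HK stood above all others, and N overlapped H (log2 difference -2.08, SE 0.468, adjusted p = 0.0340; interaction -2.74, adjusted p = 0.0376). Cfd, complement factor D or adipsin, had 1.33, 0, 0.173 and 0.231 TPM in the HC libraries and 0, 0, 0.436 and 0.447 TPM in the N libraries. It had 12.8, 16.1, 42.03 and 27.5 TPM in the HK libraries and 1.88, 0.723, 0.848 and 3.34 TPM in the H libraries. It was listed at 0 in 3 libraries with chow, and HK stood above all others (log2 difference -2.58, SE 0.569, adjusted p = 0.0299). HK minus H was 3.21 (adjusted p = 0.000250). Cd36, a fatty acid uptake protein, had 30.03, 12.8, 20.4 and 20.9 TPM in the HC libraries and 33.7, 16.4, 16.1 and 22.8 TPM in the N libraries. It had 86.7, 80.4, 91.7 and 55.6 TPM in the HK libraries and 21.7, 41.5, 45.99 and 47.8 TPM in the H libraries. The 1 overlap was H1, within the range with chow (log2 difference -1.34, SE 0.252, adjusted p = 0.0145). The fourth was Lipe, hormone-sensitive lipase (-0.60, adjusted p = 0.0487). Cidec passed in 8 of the 16 fits without 1 library, Cfd in 9 of the 16 and Lipe in 4 of the 16, whereas Cd36 passed in all 16. None of Cidec, Cfd and Cd36 passed without N or without HK (for Cd36, limma adjusted p = 0.223 and 0.342). Cidec and Cfd also did not pass without HC (limma adjusted p = 0.128 and 0.0720).

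Cfd and Cidec are also adipocyte markers, whose summed level (7 markers) was 8.05 to 17.6 TPM with chow and 15.6 to 110.3 TPM without chow (exact permutation test, two-sided, adjusted p = 0.00233 over 15 measures). Lep was at 0 in all 16 libraries, Plin1 at 0 in 14, and Adipoq at 0 in 11 and below 1 TPM on average in both classes, so the sum is carried by Cidec, Cfd and Fabp4. Cidec and Cfd were already called lower in the same libraries, so the test of the sum is not separate from these calls.

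Fat oxidation genes were lower with chow in 3 of 28 tested and higher in 0, with a median of -0.36 and 3 of 28 above 0. Over all genes 0.961% were lower, the median was -0.07 and 36.4% lay above 0. The 3 fat oxidation genes were Hadh (-0.50, adjusted p = 0.0405), which acts on short acyl chains, and Eci1 (-0.46, adjusted p = 0.0401) and Decr2 (-0.49, adjusted p = 0.0401), which prepare unsaturated chains. Each passed in 4 of the 16 fits without 1 library. Among 9 genes of ketone body metabolism 3 were lower, Bdh1, Acat1 and Fgf21, and 0 higher, again against 0.961% of all genes lower. Bdh1, which makes beta-hydroxybutyrate, had 153, 109.9, 151 and 143 TPM in the HC libraries and 151, 145, 129.9 and 149 TPM in the N libraries. It had 314, 337, 305 and 337 TPM in the HK libraries and 165, 157, 237 and 187 TPM in the H libraries. The classes were separate, and HK was above H in all libraries (log2 difference -0.79, SE 0.161, adjusted p = 0.0196; HK minus H 0.81, adjusted p = 0.0288). Fgf21, a hormone that liver releases in fasting and under ketogenic feeding, had 3.401, 2.58, 4.89 and 2.85 TPM in the HC libraries and 5.83, 5.64, 5.35 and 8.702 TPM in the N libraries. It had 68.1, 37.8, 9.65 and 34.9 TPM in the HK libraries and 8.12, 20.4, 14.8 and 6.996 TPM in the H libraries. HK1, HK2 and HK4 were highest, and N4 overlapped H1 and H4 (log2 difference -1.83, SE 0.374, adjusted p = 0.0196). Acat1, which condenses acetyl-CoA for ketone synthesis, had 180.1 ± 43.3 TPM with chow and 307 ± 54.96 TPM without chow (SD, n = 8 each; -0.78, adjusted p = 0.0174) and passed in all 16 fits without 1 library. Neither Acat1 nor Bdh1 was among the genes that passed with each regimen left out. Fgf21 passed without H, but not without HC, N or HK (limma adjusted p = 0.119, 0.168 and 0.220). Scp2, which transfers sterols and takes part in bile acid synthesis, was lower (-0.52, adjusted p = 0.0401), as 1 of 15 genes of that list, and passed in 5 of the 16 fits without 1 library.

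Osbpl3, a lipid transfer protein of the oxysterol-binding family, had 1.56, 0.364, 0.641 and 0.851 TPM in the HC libraries and 0.400, 0.563, 0.150 and 0.535 TPM in the N libraries. It had 14.1, 5.18, 6.81 and 5.83 TPM in the HK libraries and 1.42, 1.63, 7.303 and 3.84 TPM in the H libraries. HK was high throughout, while H1 and H2 were near HC1 (log2 difference -1.87, SE 0.294, adjusted p = 0.00299). Osbpl3 did not pass without N or without HK (limma adjusted p = 0.223 and 0.112). None of 19 genes of lipogenesis and desaturation passed. Scd1, which makes monounsaturated fatty acids, had 1041 ± 363 TPM in HC, 1894 ± 863 TPM in N, 28.3 ± 25.8 TPM in HK and 886 ± 193 TPM in H (SD, n = 4 each). It was low in HK, and the class difference of 3.22 did not pass (adjusted p = 0.0791). Sirt5, which removes malonyl and succinyl groups from proteins, was lower with chow (12.5 ± 2.25 TPM with chow and 18.1 ± 2.35 TPM without chow, SD, n = 8 each; log2 difference -0.51, SE 0.116, adjusted p = 0.0351). It passed in 5 of the 16 fits without 1 library, and it was chosen after its values were seen.

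Interferon-stimulated genes were lower with chow in 8 of 26 tested and higher in 0, where 0.961% of all genes were lower. The list median was -0.65 and all 26 were below 0, where the median over all genes was -0.07 and 36.4% lay above 0. Only Psmb9 had separate classes, where 0.183% of all genes were separate and lower. Psmb9, a subunit of the immunoproteasome, had 24.4, 19.3, 17.2 and 16.6 TPM in the HC libraries and 14.6, 19.4, 13.2 and 15.6 TPM in the N libraries. It had 39.2, 39.2, 32.00 and 30.1 TPM in the HK libraries and 43.4, 26.2, 25.7 and 36.5 TPM in the H libraries. The lowest value without chow, in H3, was above the highest with chow, in HC1 (log2 difference -0.92, SE 0.133, adjusted p = 0.00106). Isg15, a ubiquitin-like protein, had 17.2, 10.6, 13.2 and 15.5 TPM in the HC libraries and 13.2, 20.6, 13.9 and 10.1 TPM in the N libraries. It had 39.2, 37.1, 25.02 and 34.9 TPM in the HK libraries and 22.03, 15.2, 20.5 and 29.9 TPM in the H libraries. HK was above all libraries with chow, and H overlapped them (log2 difference -0.89, SE 0.181, adjusted p = 0.0196). Gbp3, a guanylate-binding protein (-0.85, adjusted p = 0.0126), Ifit1 (-0.93, adjusted p = 0.0213) and Ifit3 (-0.85, adjusted p = 0.0369), which bind viral RNA, Usp18 (-0.998, adjusted p = 0.0331), which removes Isg15, Oas1a (-0.80, adjusted p = 0.0410) and Ifi44 (-0.72, adjusted p = 0.0369) were the others. None of the 8 passed without N or without HK. Psmb9, Gbp3 and Isg15 passed in all 16 fits without 1 library, Ifit1 in 13, Usp18 in 7, Ifit3 and Ifi44 in 6 each and Oas1a in 3. List medians were negative in each of the 4 pairs, -0.68 for HC minus HK, -0.42 for HC minus H, -0.89 for N minus HK and -0.52 for N minus H, and 0 members passed in HC minus N or HK minus H.

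None of 10 Kupffer markers passed. All 10 were below 0, with a median of -0.68, where 36.4% of all genes lay above 0 and the median over all genes was -0.07. Their summed level was 180 to 432 TPM (mean 253) with chow and 195 to 673 TPM (mean 412) without chow (exact permutation test, two-sided, p = 0.0286, adjusted 0.143). Clec4f averaged 37.3 TPM with chow and 58.2 TPM without chow, and no Kupffer marker was at 0 in any library. The highest sum with chow was in N1 and the lowest without chow in HK4. The part of Kupffer cells in the interferon-stimulated differences was not tested. Of 10 sinusoidal endothelial markers 0 passed and all were below 0 (median -0.30; summed level 110 to 217 TPM with chow and 138 to 255 TPM without chow, adjusted p = 0.182), beside the same 36.4% of all genes above 0.

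Major urinary proteins, secreted carriers of pheromones that growth hormone pulses raise in male mice, were called lower with chow in 3 of 20 genes tested and higher in 0, where 0.341% of all genes were called lower. Their median was -0.90, against -0.07 over all genes, and 3 of the 20 were above 0, against 36.4% of all genes. This family was grouped after its values were seen. Mup17 had 776, 1071, 771 and 1178 TPM in the HC libraries and 836, 153, 338 and 418 TPM in the N libraries. It had 1242, 2738, 3928 and 1085 TPM in the HK libraries and 5669.9, 5258, 486 and 4604 TPM in the H libraries. H1, H2 and H4 were highest, while H3 was below all HC libraries (log2 difference -2.01, SE 0.495, adjusted p = 0.0471). Mup19 (-1.29, adjusted p = 0.0372) and Mup9 (-1.09, adjusted p = 0.0173) also fell. Mup17 passed in 5 of the 16 fits without 1 library and not after median-of-ratios scaling, and Mup genes are near-identical, so their split is uncertain. It was the only 1 of 27 genes of the male-biased and growth hormone list to pass. In retinoid metabolism 2 of 15 were lower, Rarres1 and Bco1, where 0.961% of all genes were lower. Rarres1, a retinoic acid responsive gene, had 60.01 ± 8.08 TPM in HC, 29.6 ± 4.15 TPM in N, 94.01 ± 19.01 TPM in HK and 125 ± 44.7 TPM in H (SD, n = 4 each; -1.30, adjusted p = 0.00869), with HC above N (HC minus N 0.995, adjusted p = 0.0389). Bco1, which splits beta-carotene into retinal, had 3.16 ± 0.0545 TPM in HC, 2.77 ± 0.483 TPM in N, 5.402 ± 1.45 TPM in HK and 4.81 ± 1.42 TPM in H (-0.60, adjusted p = 0.0278), with separate classes. Mup17, Mup19, Mup9 and Rarres1 did not pass without N or without HK, and Mup17 did not pass without H (limma adjusted p = 0.0537). Bco1 was not among the genes that passed with each regimen left out.

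Further called genes that were lower with chow had means below 20 TPM in the class with chow. Them7 lay between 8.73 and 19.98 TPM (median 14.6) with chow and between 22.7 and 38.8 TPM (median 31.9) without chow, without overlap (log2 difference -1.15, SE 0.163, adjusted p = 0.000832). Cntnap1, a contactin-associated membrane protein, had 0.313 ± 0.115 TPM in HC, 0.200 ± 0.0274 TPM in N, 4.72 ± 4.15 TPM in HK and 1.36 ± 1.22 TPM in H, without overlap (-1.38, adjusted p = 0.0259). Arsg, a lysosomal sulfatase, differed by -1.24 (adjusted p = 0.00202), Tmem86a, a lysoplasmalogenase, by -1.37 (adjusted p = 0.0116), Gpc1, a cell surface proteoglycan, by -1.48 (adjusted p = 0.0244) and Inhbe, a subunit of activin E, by -1.01 (adjusted p = 0.0369). Krt23, a keratin, lay between 0.876 and 3.36 TPM (median 2.01) with chow and between 2.096 and 20.3 TPM (median 8.196) without chow (-1.53, adjusted p = 0.0410), with all HK libraries above all others. Cenpm, a centromere protein, had 3.76 ± 1.45 TPM in HC, 0.359 ± 0.200 TPM in N, 5.87 ± 1.700 TPM in HK and 5.24 ± 1.44 TPM in H (-1.36, adjusted p = 0.0402), with N low. Krt23 and Cenpm each passed in 5 of the 16 fits without 1 library and Inhbe in 6 of the 16, whereas Them7, Arsg and Tmem86a passed in all 16. Cntnap1 and Krt23 did not pass without HC (limma adjusted p = 0.0664 and 0.218), and Cenpm did not pass without H (0.0702). None of the genes in this paragraph passed without HK, and Them7 alone passed without N (limma adjusted p = 0.0412). These genes were chosen from the called genes after their values were seen.

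**Figure D4:**
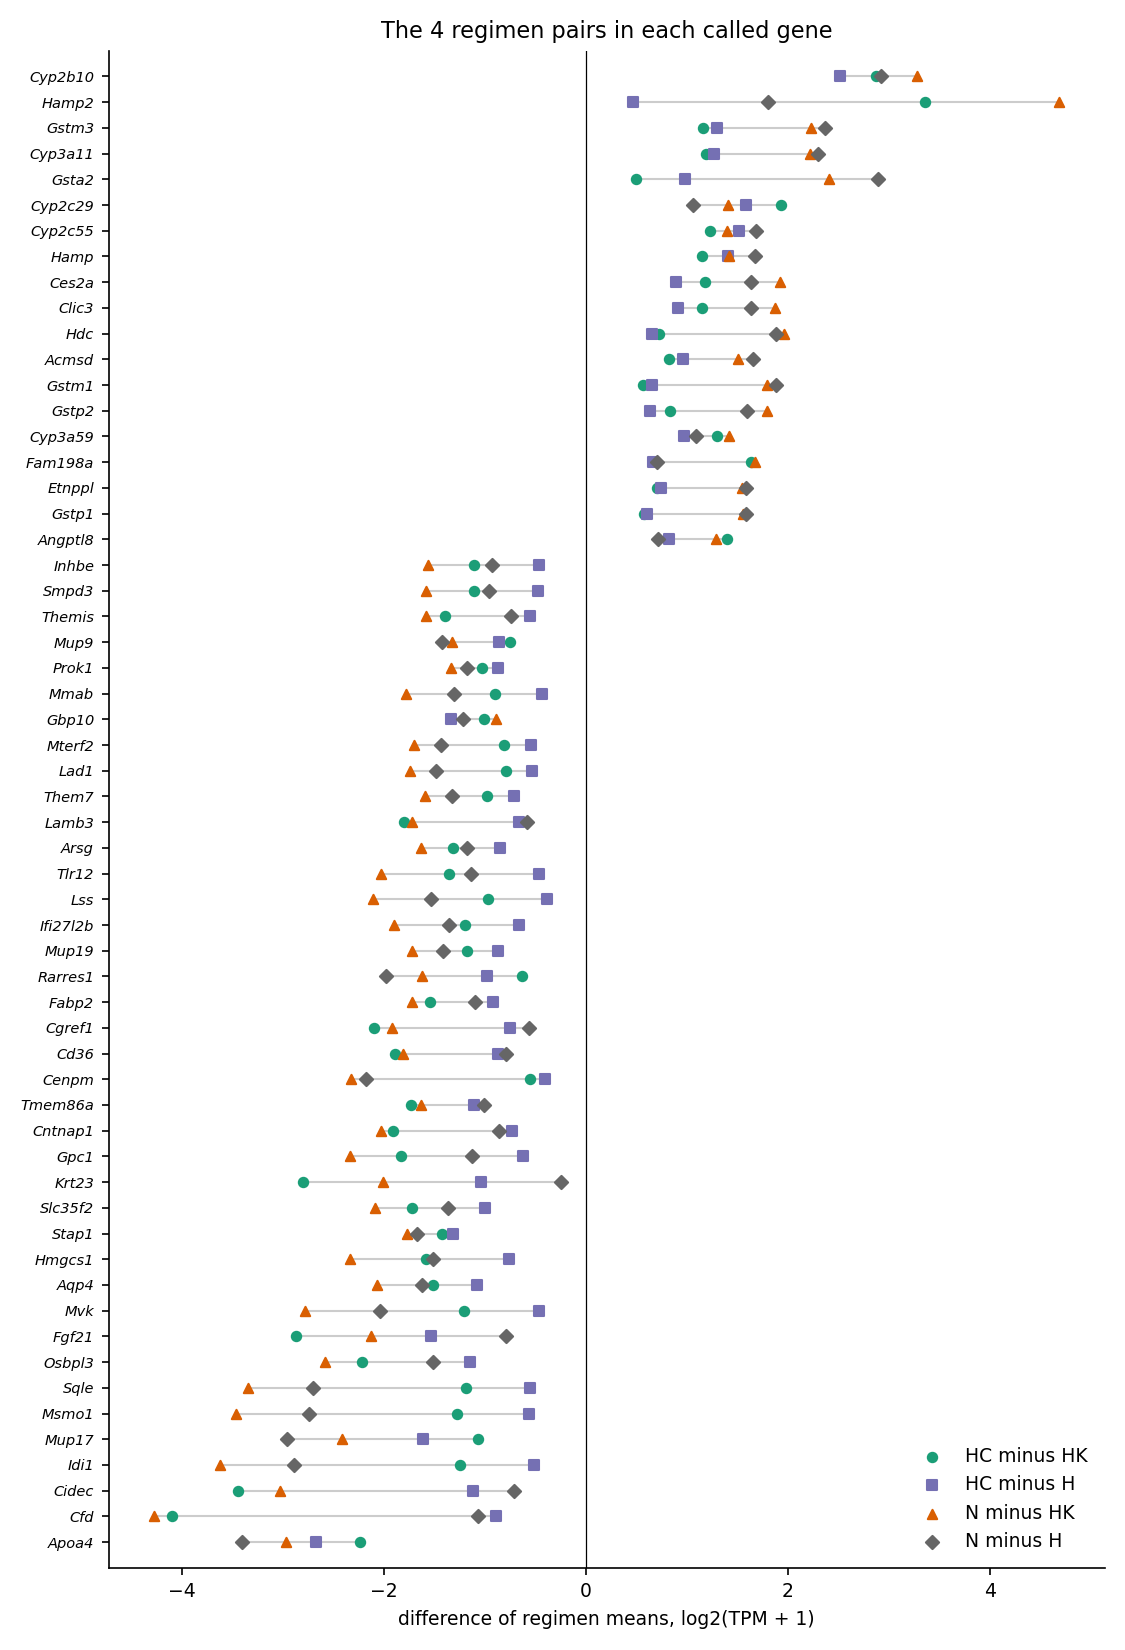
For each of the 58 called genes, the 4 differences of regimen means on the log2(TPM + 1) scale, with HC minus HK as circles, HC minus H as squares, N minus HK as triangles and N minus H as diamonds. All 4 marks lie on 1 side of 0 in every gene, and they lie close together in Cyp2b10 and far apart in Hamp2, Cfd and Cidec.

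Within each class the regimens also differed. In a fit of 4 regimen means HC minus N gave 51 called genes (0.445%), 30 higher (0.262%) and 21 lower (0.183%), and HK minus H gave 8 (0.0699%), 5 higher (0.0437%) and 3 lower (0.0262%). The balance of HC minus N turned with the 20-gene share as a covariate (30 higher and 40 lower) and without N3 (19 higher and 21 lower). Of the 58 genes called between the classes, 7 were also called in HC minus N and 4 in HK minus H. In 17 of the 19 higher genes the N mean was above the HC mean, and in 31 of the 39 lower genes it was below. In 12 of the 19 higher genes the HK mean was below the H mean, and in 34 of the 39 lower genes above. These counts share libraries with the class comparison and are given as descriptions. The difference with minus without chow itself differed between alternating and continuous feeding in 85 genes (0.742%, interaction tested without a limit on fold), 34 with a positive (0.297%) and 51 with a negative interaction (0.445%), 5 of them among the 58.

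Regarding position, 15 of the 58 called genes lay within 1 Mb of another, in 7 groups. These were Gstp1 with Gstp2 and Cyp2c55 with Cyp2c29 on chromosome 19, Gstm3 and Gstm1 with Prok1 on chromosome 3, Mup17 with Mup19 on chromosome 4, Mmab with Mvk and Cyp3a11 with Cyp3a59 on chromosome 5, and Hamp with Hamp2 on chromosome 7. Within each group the direction was shared, except that Prok1 was lower (-1.10) where Gstm3 and Gstm1 were higher. Most of these groups are gene families in tandem, in which reads of near-identical copies may be divided with error. How often 58 genes drawn from all those tested lie this close was not computed, so the count of 15 is a description.

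**Figure D5:**
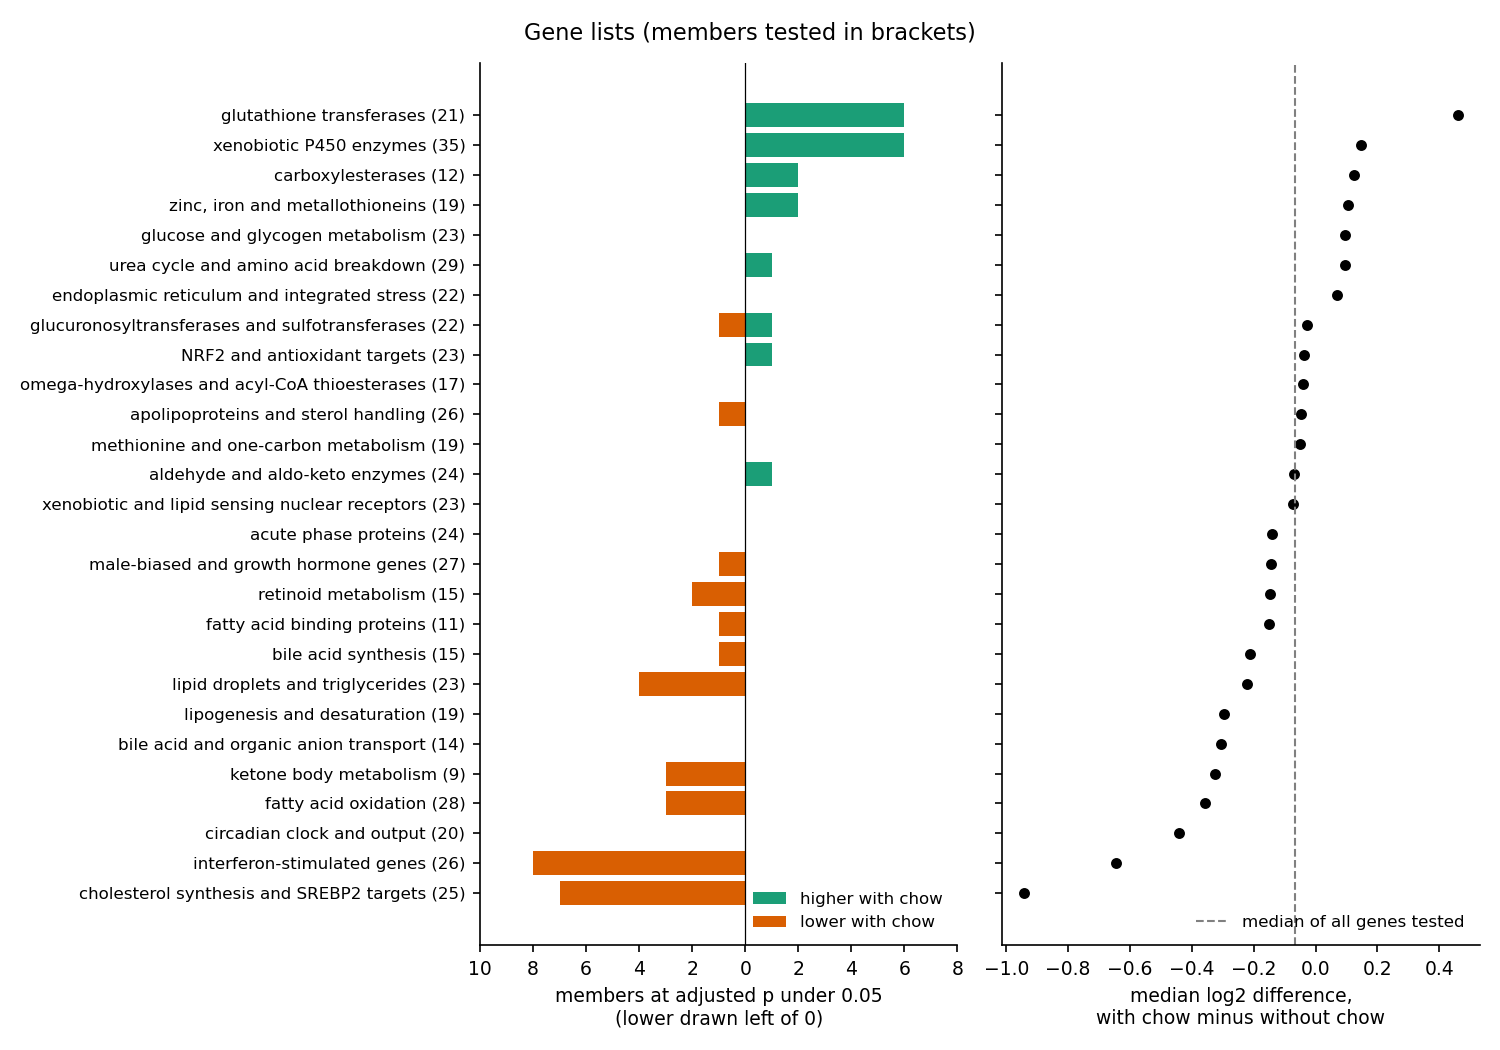
Left, the number of members at an adjusted p below 0.05 in each of 27 gene lists, higher with chow to the right and lower to the left of 0; right, the list median of the log2 difference, with the median of all genes tested as a dashed line. Glutathione transferases and P450 enzymes have 6 higher members each, and interferon-stimulated genes and cholesterol synthesis have 8 and 7 lower.

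Several lists had no member past the threshold in either direction. These were nuclear receptors (23 tested, median -0.07), lipogenesis (19, -0.30), omega-hydroxylases and acyl-CoA thioesterases (17, -0.04), bile acid and anion transport (14, -0.31), clock genes (20, -0.44), glucose and glycogen metabolism (23, 0.10), one-carbon metabolism (19, -0.05), endoplasmic reticulum stress (22, 0.07) and acute phase proteins (24, -0.14). Among all genes tested the unadjusted p was below 0.05 in 1929. In the clock list, Dbp, an output factor of the circadian clock, had 18.1, 18.6, 20.8 and 83.4 TPM in HC and 1.62, 1.57, 4.99 and 2.54 TPM in N. It had 63.6, 50.3, 78.8 and 167 TPM in HK and 14.2, 3.61, 24.5 and 149 TPM in H, where the H libraries alone spread wider than the class difference (-2.11, adjusted p = 0.168). Apoa4 was the only member of 26 apolipoproteins and sterol handling genes to pass, and Fabp2 the only one of 11 fatty acid binding proteins. Both were lower with chow, as were 0.961% of all genes.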

How the data were processed

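Liver RNA of 16 libraries was sequenced, 4 from each of the regimens HC, N, HK and H. Per the series' design text and the submitters' processing notes, trimmed reads were mapped to mm10 with HISAT2, and gene levels were calculated with RSEM 1.1.17 as FPKM. The deposited values are TPM, since each column sums to 1000000, and the step that led to them is not given in the sources used here. Gene names and coordinates are those of the deposited gene table, and a transcript table was not used here. RSEM divides reads that match several genes by estimation.

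Genes with at least 1 TPM in 4 libraries were tested as log2(TPM + 1) with limma 3.58.1 (R 4.3.3, empirical Bayes with an intensity trend) and Benjamini-Hochberg adjustment over all genes tested. The classes were fitted as 2 means, and the contrasts within classes and the interaction in a fit of 4 regimen means. The code was tested on simulated data. Differences on this scale understate changes of genes near or below 1 TPM. Composition was tested with two-sided exact permutation tests over libraries.

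Text genes were the called genes with the largest differences (up to 12 each way, mean of at least 1 TPM, no predicted genes), the best members of each list (up to 4 that passed, otherwise the 2 most abundant) and the 3 with the smallest adjusted p in each other contrast, of which 1 gene is not reported here. A further 32 genes were chosen after their values were seen. The members of the comparison and the gene lists were chosen with earlier results of these data known. Alternatives changed the pseudocount, the filter, the scaling, the model and the libraries. Promoters came from RefSeq (GRCm38.p6), the assembly named mm10.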

Additional observations from a re-analysis of the deposited data

Results flagged for a closer look

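In 26 of 424 tests of a gene within the 4 libraries of 1 regimen, 1 library lay far from the other 3 by Dixon's test on log2(TPM + 1), where chance gives about 1 in 20. The library stood high in 14 of these tests. Cyp2b10 in H2 had 1.39 TPM against 0.411 to 0.480 TPM, Fgf21 in N4 had 8.70 TPM against 5.35 to 5.83 TPM, and Cyp3a59 in H3 had 33.9 TPM against 16.1 to 17.2 TPM. Tef in HC4 had 80.5 TPM against 40.7 to 44.8 TPM, Dbp in HC4 had 83.4 TPM against 18.1 to 20.8 TPM, and Gnmt in H3 had 3681 TPM against 1594 to 1742 TPM. Rarres1 in N1 had 35.8 TPM against 26.9 to 28.0 TPM, Rarres1 in HK3 had 122 TPM against 82.8 to 88.1 TPM, and Slc22a7 in HC1 had 51.1 TPM against 30.0 to 31.9 TPM. Slc39a4 in H3 had 11.1 TPM against 6.48 to 6.94 TPM, Cntnap1 in HK1 had 10.9 TPM against 2.41 to 2.83 TPM, and Cntnap1 in H3 had 3.18 TPM against 0.620 to 0.847 TPM. Etnppl in N1 had 159 TPM against 105 to 107 TPM, and Lgals3bp in HK1 had 93.0 TPM against 65.7 to 69.5 TPM. It stood low in 12. Mup17 in H3 had 486 TPM against 4604 to 5669.9 TPM, Gstm1 in HK3 had 807 TPM against 1038 to 1061 TPM, and Gstp1 in HC1 had 1643 TPM against 2799 to 3124 TPM. Hadh in N3 had 190.2 TPM against 275 to 284 TPM, Acat1 in H1 had 189 TPM against 297 to 326 TPM, and Scp2 in HC2 had 1623 TPM against 2093 to 2146 TPM. Slc10a1 in HK1 had 507 TPM against 719 to 767 TPM, Pck1 in HC1 had 534 TPM against 1529.7 to 1752 TPM, and Hp in HC4 had 4122 TPM against 5389 to 5569.6 TPM. Ifit1 in HK4 had 6.01 TPM against 9.98 to 10.4 TPM, Gpc1 in N3 had 1.33 TPM against 4.63 to 5.10 TPM, and Mup9 in H3 had 887 TPM against 2328 to 2545 TPM.

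In 16 of the genes named in the text the difference with minus without chow was not the same under alternating as under continuous feeding, by limma's interaction test at an adjusted p below 0.05. With the alternating pair farther from 0, Cfd had -4.10 for HC minus HK and -1.06 for N minus H (interaction -3.03, adjusted p = 0.0117). Cidec had -3.44 for HC minus HK and -0.71 for N minus H (interaction -2.74, adjusted p = 0.0376). Krt23 had -2.80 for HC minus HK and -0.25 for N minus H (interaction -2.55, adjusted p = 0.00864). Bdh1 had -1.22 for HC minus HK and -0.36 for N minus H (interaction -0.87, adjusted p = 0.0476). Scd1 had 5.44 for HC minus HK and 1.00 for N minus H (interaction 4.44, adjusted p = 0.00237). With the continuous pair farther from 0, Gsta2 had 0.50 for HC minus HK and 2.89 for N minus H (interaction -2.40, adjusted p = 0.0335). Cenpm had -0.55 for HC minus HK and -2.18 for N minus H (interaction 1.63, adjusted p = 0.0268). Bhmt had -0.03 for HC minus HK and -1.70 for N minus H (interaction 1.67, adjusted p = 0.0489). Scd1, Bhmt and the genes that follow did not pass between the classes. Calr had 0.35 for HC minus HK and -0.46 for N minus H (interaction 0.81, adjusted p = 0.0268). Serpina3k had 0.28 for HC minus HK and -0.83 for N minus H (interaction 1.11, adjusted p = 0.0410). Nup62cl had 0.17 for HC minus HK and 1.81 for N minus H (interaction -1.65, adjusted p = 0.00406). Slc22a7 had 0.63 for HC minus HK and -2.74 for N minus H (interaction 3.37, adjusted p = 0.00437). Gulo had 0.12 for HC minus HK and -1.03 for N minus H (interaction 1.15, adjusted p = 0.0148). Cyp2c70, with the alternating pair farther from 0, had 2.16 for HC minus HK and -0.41 for N minus H (interaction 2.57, adjusted p = 0.000792). Rad51b had -1.20 for HC minus HK and 1.39 for N minus H (interaction -2.60, adjusted p = 0.000792). Slc39a4 had -0.35 for HC minus HK and 2.49 for N minus H (interaction -2.84, adjusted p = 0.000936).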

How the results depend on the processing

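The count of 58 genes called between the classes was 31 with a pseudocount of 5, 19 with no filter on low values, 27 with the 20-gene share as a covariate, 92 as a contrast of 4 regimen means, 157 without HC, 11 without N, 11 without HK and 127 without H. Without 1 library it ranged from 27 (without HK3) to 91 (without H1), and it was also over 1.5 times away without N3 (31), N4 (30), HK1 (38) and HK2 (32). A pseudocount of 0.1 (80), a mean of at least 5 TPM (39), median-of-ratios scaling (60) and no intensity trend (55) stayed within 1.5 times. The 51 genes of HC minus N became 25 with no filter and 32 without the libraries over 33%, and 21 (without HC1) to 59 (without N1) without 1 library. The 8 genes of HK minus H became 2 with a pseudocount of 0.1, 3 with no filter, 4 with the covariate, 2 without the libraries over 33%, 5 with no trend and 4 in a fit of HK and H alone, and 3 to 28 (without H3) without 1 library. The interaction's 85 genes (34 positive, 51 negative) became 54 with no filter, 138 after scaling (102 and 36), 295 with the covariate (88 and 207) and 38 without the libraries over 33%, and 23 (without HC1) to 132 (without H3) without 1 library. The scaling also split the HK minus H calls into 4 higher and 4 lower. Members of gene lists at an adjusted p below 0.05 numbered 52, and 16 with no filter. The interaction needs all 4 regimens, so a fit of 2 regimens alone gave no value for it. The cause of these shifts was not tested.

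No pairing of the libraries by their numbers was seen, though low correlations cannot show that there was none. Deviations of same-numbered libraries correlated between -0.58 and 0.39 (median -0.0016, 24 pairs), and 4 of 16 libraries correlated best with their own number. With the replicate number as a block, 33 genes were called between the classes, 38 in HC minus N, 3 in HK minus H and 37 in the interaction.

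Of the 81 genes named in the text that passed between the classes, 55 did not pass with no filter, 41 with the block, 38 with the covariate, 15 without the libraries over 33%, 4 with a pseudocount of 0.1, 5 with a pseudocount of 5, 4 after scaling, 6 with no trend and 2 with a mean of at least 5 TPM. Left out in turn, 70 did not pass without N, 70 without HK, 23 without HC and 11 without H. Among all genes named, signs turned only in some that had not passed. Log2 differences turned after scaling in Cyp4a14 (0.0582) and Calr (0.00515), with the covariate in Cyp4a14 (0.0463), and without the libraries over 33% in Calr (0.0854), Serpina3k (0.013), Hp (0.0337) and Rad51b (-0.317). They turned without HC in Cyp4a14 (0.379) and Herpud1 (-0.147), without N in Calr (0.223), Hp (0.183), Rad51b (-0.637), Nr1i3 (0.0475), Slc22a7 (0.41) and Gulo (0.105), without HK in Cyp4a14 (0.448) and Cyp2c70 (-0.0723), and without H in Calr (0.0626), Serpina3k (0.021), Rad51b (-0.467), Hnf4a (-0.0711) and Herpud1 (-0.0408). Without 1 library, Cyp4a14 ranged from -0.153 to 0.122, Herpud1 from -0.00628 to 0.362 and Rad51b from -0.077 to 0.237. The depth is unknown, so the counting error of low genes such as Stap1 and Cfd is not known.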

Other observations

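Outside the list of interferon-stimulated genes, other genes known as interferon-induced also passed and were lower with chow. These were Lgals3bp (-0.71, adjusted p = 0.0166), a secreted glycoprotein, Herc6 (-0.76, adjusted p = 0.0438), the mouse ligase that attaches Isg15, the RNA sensors Ifih1 (-0.72, adjusted p = 0.0427) and Dhx58 (-0.63, adjusted p = 0.0331), Oasl1 (-0.71, adjusted p = 0.0372), the helicase Ddx60 (-0.67, adjusted p = 0.0231) and Tap1 (-0.65, adjusted p = 0.0251), which carries peptides for presentation. Adjusted p-values are from limma with Benjamini-Hochberg adjustment over all genes tested. Lgals3bp had 37.3 ± 5.195 TPM in HC, 39.6 ± 9.25 TPM in N, 73.9 ± 12.8 TPM in HK and 54.1 ± 7.295 TPM in H (SD, n = 4 each). Tap1 had 13.4 ± 3.42 TPM in HC, 10.3 ± 1.65 TPM in N, 19.8 ± 3.68 TPM in HK and 17.9 ± 2.36 TPM in H. They were picked from the genes that passed after their values were seen, so their number carries no test. Lgals3bp passed in all 16 fits without 1 library, Ddx60 in 12 of the 16 and Herc6 in 5 of the 16. None of these was among the genes that passed with each regimen left out.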
